A study of Rattus norvegicus with 12 samples.

Results

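This report describes the genes for 7 subunits of the NADPH oxidases, Cybb, Cyba, Ncf1, Ncf4, Rac2, Nox1 and Nox4, in the bladder body of ageing and calorie-restricted rats. The members were all probes, control probes aside, whose RefSeq accession mapped to 1 of these genes, and each gene had 1 probe, printed in 2 spots on every array. They were 7 of the 26903 genes or unnamed transcripts on the array, and 6 of the 7 were among the 20425 features bright enough to test, meaning that every array of some group showed the probe well above background. The samples were 12 male Fischer 344 rats with no genetic change named in the labels, 1 animal per array, in 3 groups of 4. Young freely fed rats were 6 months old, and old freely fed rats were 25 to 28 months old. Old restricted rats were also 25 to 28 months old and had been given food on 3 days a week from 6 weeks of age, which lowered their intake by about 40%. The comparison of the freely fed groups addresses age, and the series asks whether restriction prevents the changes that come with it.

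NADPH oxidases are membrane enzymes that carry electrons from NADPH to oxygen and so make superoxide or hydrogen peroxide. In phagocytes the catalytic subunit gp91phox (Cybb) sits with p22phox (Cyba) in the membrane, and the complex becomes active only when cytosolic subunits, among them the organiser p47phox (Ncf1) and the regulator p40phox (Ncf4), and a Rac GTPase, Rac2 in blood cells, join it. Nox1 and Nox4 are catalytic subunits of non-phagocytic cells. Nox1 needs cytosolic partners as Cybb does, whereas Nox4 needs only p22phox and is active as made, and both are studied in smooth muscle and epithelium.

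Levels are given as log2 signal relative to the 75th percentile of the same array, so 0 is the brightness of that percentile and 1 unit is a doubling. Because each probe has its own brightness, levels were compared between animals and not between genes. The 75th percentile was 3993 to 4892 intensity units over the 12 arrays, and 21659 to 24644 of 30367 probes were well above background. The smooth muscle and urothelial markers that the array could measure were all bright enough to test (9 of 9 in each list). Old freely fed replicate 2 stood apart from its group, at 52.2 on the first principal component against 7.27 to 11.1 for the other 3 animals, and results are also given without it. Young and old freely fed rats shared 1 slide but lay in different array rows, so row and age cannot be told apart between them. Restricted rats were on a second slide, so slide and restriction cannot be told apart in any comparison with them. Old freely fed and restricted rats also differed in array row. The old freely fed animals serve both the comparison of age and the comparison of restriction at old age, so the changes in these comparisons are not independent of each other.

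For Cybb, Cyba, Ncf1, Nox1 and Nox4 (5 of 7 members) the RefSeq table of the GRCr8 assembly held the bases before the gene start. The 250 bases before it are shown for the 3 leukocyte subunits found and for Nox1, because those 3 subunits had correlated levels across animals while Nox1 followed them less closely. The motifs searched on both strands were GAGGAA (the core read by the myeloid factor PU.1), CCAAT (the box of that name) and TTCNNNGAA (the core of STAT sites), and capitals mark the matches. Sequences run 5′ to 3′ on the strand of the gene, ending at the base before the start. Cybb is at chrX:16065066-16065315 on the minus strand, Cyba at chr19:67404215-67404464 on the minus strand, Ncf1 at chr12:28121635-28121884 on the plus strand and Nox1 at chrX:101595521-101595770 on the minus strand.
Cybb: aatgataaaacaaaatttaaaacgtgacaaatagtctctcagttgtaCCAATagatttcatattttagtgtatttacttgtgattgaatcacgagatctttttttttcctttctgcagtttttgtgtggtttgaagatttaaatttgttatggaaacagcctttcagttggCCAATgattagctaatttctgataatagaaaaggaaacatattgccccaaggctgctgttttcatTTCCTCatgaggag
Cyba: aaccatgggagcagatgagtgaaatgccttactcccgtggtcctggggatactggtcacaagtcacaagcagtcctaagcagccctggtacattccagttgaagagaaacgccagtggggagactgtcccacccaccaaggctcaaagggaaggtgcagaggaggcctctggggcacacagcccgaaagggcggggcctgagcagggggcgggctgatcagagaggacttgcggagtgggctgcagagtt
Ncf1: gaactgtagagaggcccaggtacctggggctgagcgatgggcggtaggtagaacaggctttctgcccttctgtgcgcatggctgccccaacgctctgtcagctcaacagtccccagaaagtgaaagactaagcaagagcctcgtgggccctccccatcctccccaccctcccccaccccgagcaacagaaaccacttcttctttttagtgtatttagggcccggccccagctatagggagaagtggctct
Nox1: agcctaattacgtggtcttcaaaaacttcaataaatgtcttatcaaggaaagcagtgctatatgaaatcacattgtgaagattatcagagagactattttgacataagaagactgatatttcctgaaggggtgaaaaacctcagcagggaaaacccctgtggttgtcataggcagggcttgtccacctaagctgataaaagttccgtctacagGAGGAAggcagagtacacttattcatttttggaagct
The Cybb window held GAGGAA on the reverse strand (read here as TTCCTC) 14 bases before the start, and CCAAT 203 and 79 bases before it. The Nox1 window held GAGGAA 37 bases before its start. No match to any of the 3 motifs was found in these windows of Cyba, Ncf1 or Nox4. GAGGAA occurs in 23.3% of the 33469 windows of this length in the table, CCAAT in 34.0% and TTCNNNGAA in 7.67%, and a match describes the letters of a window, not binding.

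Rac2, the Rac GTPase of blood cells, was the 1 subunit that passed the limma test with age and with restriction. Its level in young freely fed replicates 1 to 4 was 0.11, 0.38, 0.27 and 0.43. In old freely fed replicates 1 to 4 it was 1.37, 2.11, 0.91 and 0.92, and in old restricted replicates 1 to 4 it was 0.35, 0.23, 0.71 and 0.13. Each old freely fed animal was above each young and each restricted animal, whereas the young and restricted ranges overlapped. Group means were 0.30 ± 0.14, 1.33 ± 0.57 and 0.36 ± 0.26 (SD, n = 4 each). Rac2 rose 2.04-fold with age, a log2 change of 1.03 (SE 0.23, 95% interval 0.53 to 1.53, limma adjusted p = 0.038). It was 1.96-fold lower in restricted than in freely fed old rats, a log2 change of -0.97 (SE 0.23, 95% interval -1.47 to -0.47, limma adjusted p = 0.043). Between restricted old and young rats Rac2 differed by 0.06 (95% interval -0.44 to 0.56, limma adjusted p = 0.899). An exact two-sided permutation test gave p = 0.0286 for Rac2 in both of the first 2 comparisons, the smallest that 4 animals against 4 can give. Any gene whose groups do not overlap gives this value. That also held for Ncf1 and Cybb with age and for Ncf4 with restriction, so this test does not single out Rac2.

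The Rac2 result was close to the threshold, and 1 animal set much of its size. Without old freely fed replicate 2 the rise with age was 0.77 and the difference with restriction -0.71, and both still passed (limma adjusted p = 0.0366 and 0.0376). Over 12 fits that each left out 1 animal, the age change ranged from 0.77 to 1.17 and passed in 5, with adjusted p of 0.031 to 0.0886. The restriction change ranged from -1.11 to -0.71 and also passed in 5 of 12, with adjusted p of 0.0344 to 0.116. The age call was lost without any 1 of the 4 young animals, old freely fed replicate 1, or old restricted replicate 1 or 2. The restriction call was lost without young replicate 2, 3 or 4, old freely fed replicate 1, or old restricted replicate 1, 2 or 4.

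Ncf1, the organiser subunit that brings the cytosolic complex to the membrane, showed the same order of groups at a smaller size. Its level was -0.77, -0.74, -0.87 and -0.65 in young, -0.20, 0.07, -0.51 and -0.63 in old freely fed and -0.74, -0.85, -0.57 and -0.87 in old restricted replicates 1 to 4. The old freely fed animals were all above the young, by 0.02 between the nearest animals, and old restricted replicate 3 lay within the old freely fed range. The log2 change was 0.44 with age (SE 0.13, limma adjusted p = 0.0758) and -0.44 with restriction (SE 0.13, limma adjusted p = 0.0907), so neither passed. These values were 0.31 and -0.31 without old freely fed replicate 2.

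Ncf4, the phosphoinositide-binding regulator, lay at -1.48, -1.32, -1.56 and -1.53 in young, -0.99, -0.89, -1.49 and -1.37 in old freely fed and -1.50, -1.71, -1.52 and -1.76 in old restricted replicates 1 to 4. Old freely fed replicates 1 and 2 were above every young animal, while replicates 3 and 4 lay within the young range, so the age groups overlapped. All 4 restricted animals lay below all 4 old freely fed animals, by 0.0014 between the nearest animals. The log2 change was 0.29 with age (SE 0.13, limma adjusted p = 0.187) and -0.43 with restriction (SE 0.13, limma adjusted p = 0.0842), and neither passed.

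Cybb, the catalytic subunit of the phagocyte enzyme, lay at -4.66, -4.48, -4.58 and -4.61 in young, -4.13, -3.45, -4.38 and -4.48 in old freely fed and -4.51, -4.59, -4.37 and -4.85 in old restricted replicates 1 to 4. Old freely fed replicate 2 was far above all other animals, and replicate 4 of that group equalled young replicate 2 to 2 decimals. The log2 change was 0.47 with age (SE 0.19, limma adjusted p = 0.156) and -0.47 with restriction (SE 0.19, limma adjusted p = 0.200), and neither passed. Without old freely fed replicate 2 the values were 0.25 and -0.24.

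Cyba, the membrane partner that Cybb, Nox1 and Nox4 share, lay at 3.83, 3.89, 3.69 and 3.90 in young, 3.98, 4.37, 3.81 and 3.90 in old freely fed and 3.83, 3.72, 4.00 and 3.76 in old restricted replicates 1 to 4. Only old freely fed replicate 2 lay clearly outside the range of the other groups. The log2 change was 0.19 with age (SE 0.11, limma adjusted p = 0.305) and -0.19 with restriction (SE 0.11, limma adjusted p = 0.350). Without that animal it was 0.07 and -0.07.

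Nox1, the non-phagocytic catalytic subunit, gave a dim but measured signal of 94.7 to 169 intensity units over the 12 arrays. Its level was -5.23, -5.53, -5.40 and -5.30 in young, -5.15, -4.85, -5.29 and -5.32 in old freely fed and -5.22, -5.49, -5.10 and -5.38 in old restricted replicates 1 to 4. The 3 groups overlapped, with old freely fed replicate 2 highest. The log2 change was 0.21 with age (SE 0.13, limma adjusted p = 0.318) and -0.15 with restriction (SE 0.13, limma adjusted p = 0.543), values whose signs turned to -0.01 and 0.04 after another background correction (normexp). Without old freely fed replicate 2 the changes were 0.11 and -0.05.

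Nox4, the subunit that is active as made, could not be measured. Its probe was not well above background on any of the 12 arrays, counting a probe as such where more than 0.5 of its spots were, although 1 of its 2 spots was on old freely fed replicate 2. Its raw signal was 4.66 to 14.1 intensity units. The 2 spots of the probe differed by up to 1.38 log2 units on 1 array, against at most 0.04 for Rac2. No group mean, fold or test is therefore given for Nox4, and no contrast of the leukocyte subunits with Nox4 was made. Negative control spots also differed between groups, with a mean log2 signal of -9.18 to -8.94 on arrays of young, -10.5 to -9.97 of old freely fed and -9.81 to -9.54 of old restricted rats, beside raw Nox4 readings of -9.98 to -8.44 on the same scale. A signal this low does not show that the gene was not expressed.

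**Figure D1:**
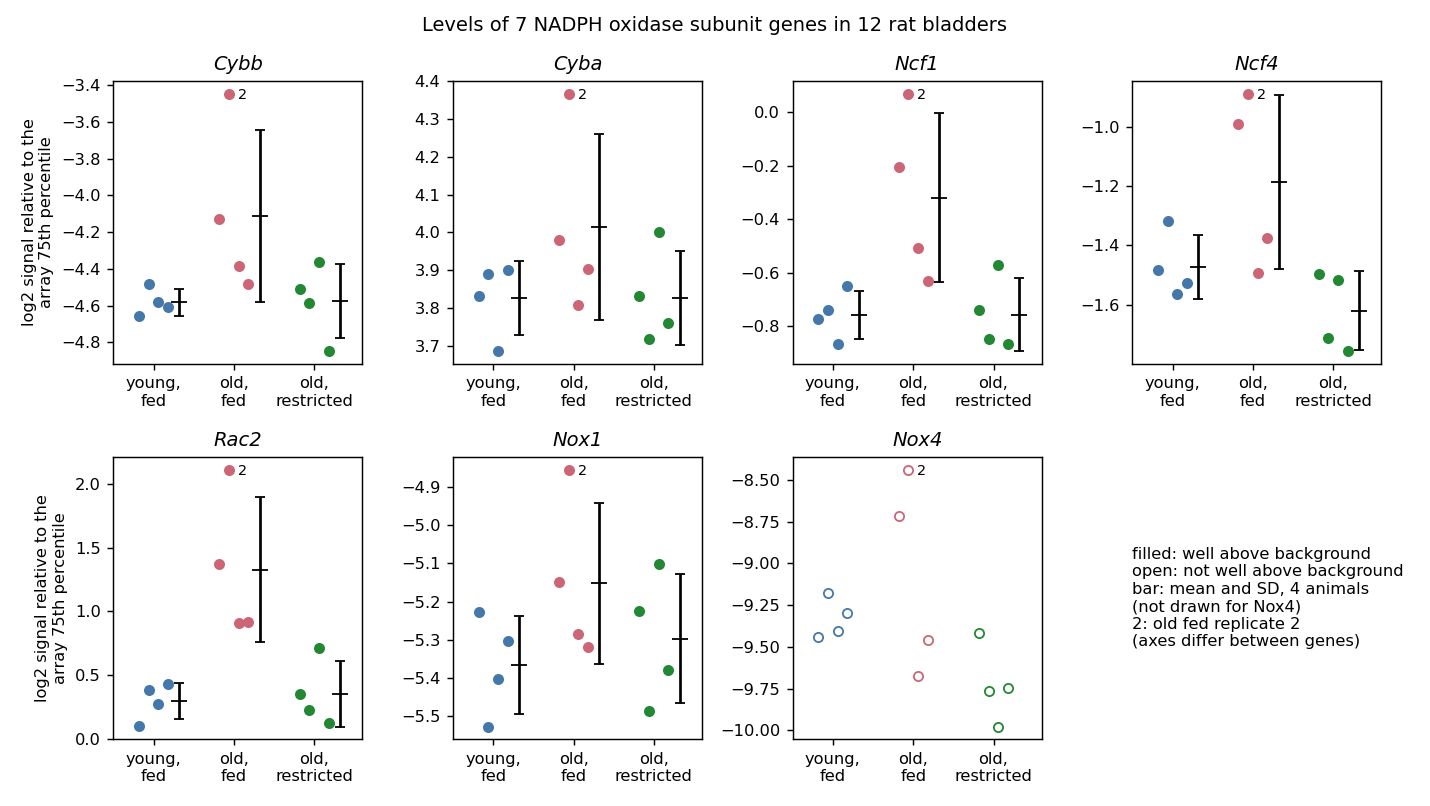
Level of each NADPH oxidase subunit gene (log2 signal relative to the array 75th percentile, vertical axis, with a different scale in each panel) in the 3 groups of 4 rats, with mean and SD beside the points for all genes but Nox4. Rac2 is higher in every old freely fed animal (0.91 to 2.11) than in any other animal (0.11 to 0.71), and open points mark Nox4 as not well above background.

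With age 1 of the 6 measured members was called, Rac2, which rose, beside 1.59% of all features called higher and 2.03% called lower. With restriction 1 of 6 was called, again Rac2, which was lower, beside 1.99% of all features called lower and 1.59% called higher. Between restricted old and young rats 0 of 6 were called by limma, beside 9.1% of all features called in either direction, and 0 of 6 had an unadjusted p under 0.05, beside 26.1% of all features. At an unadjusted p under 0.05, 4 of 6 members were higher with age and 4 of 6 lower with restriction (Cybb, Ncf1, Ncf4 and Rac2 in both), beside 8.23% of all features higher with age and 9.05% lower with restriction at that threshold. Over the 5 leukocyte subunits the median log2 change was 0.44 with age, -0.44 with restriction and 0.00 between restricted old and young rats, beside -0.05, 0.02 and -0.01 over all features tested. Groups did not overlap with age for Rac2, Ncf1 and, by less than the rounding of its values, Cybb, beside 5.66% of all features that were higher without overlap. With restriction they did not overlap for Rac2 and Ncf4, beside 6.03% of all features that were lower without overlap. The intervals of the difference between restricted old and young rats ran from -0.24 to 0.23 for Cyba, -0.28 to 0.28 for Ncf1, -0.42 to 0.13 for Ncf4, -0.41 to 0.42 for Cybb and -0.21 to 0.34 for Nox1. Among all features the balance of calls with age moved with the scaling, from 325 higher and 415 lower to 384 higher and 130 lower after median centring.

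**Figure D2:**
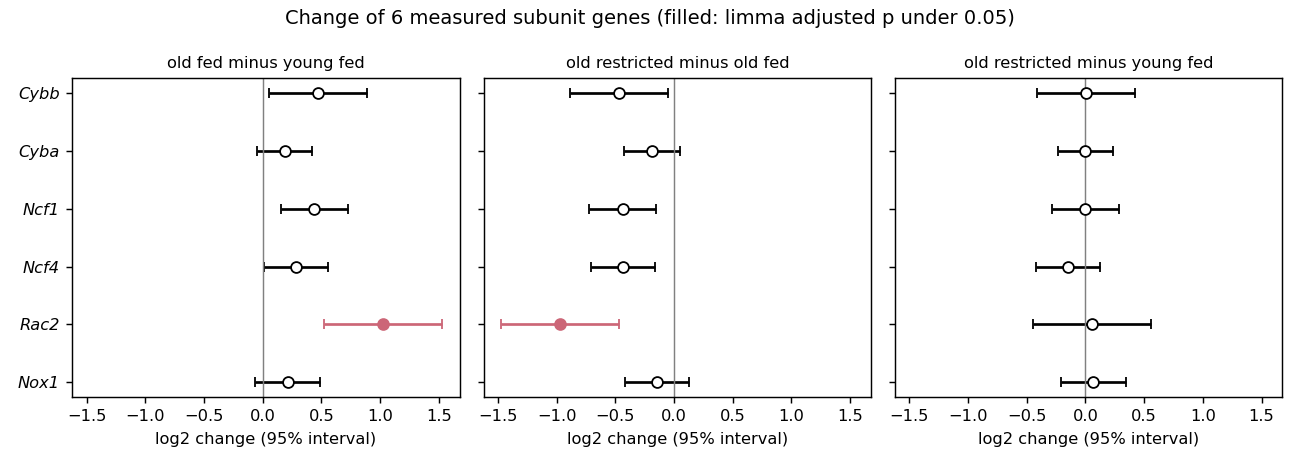
Log2 change (points, horizontal axis) with 95% intervals (bars) of the 6 measured subunit genes in 3 comparisons, filled where the limma adjusted p was under 0.05. Rac2 is the 1 filled gene, at 1.03 with age and -0.97 with restriction, and all 6 intervals cover 0 between restricted old and young rats.

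With all 4 animals counted, the levels of the members varied more within the old freely fed group than within the others. The SD of the old freely fed animals was larger than that of the young for 6 of 6 members, beside 44.4% of all features tested. For Cybb the ratio of these SDs was 6.45 and for Rac2 3.92, whereas the median over all features was 0.90. In restricted rats the SD was smaller than in old freely fed rats for 6 of 6 members, beside 53.3% of all features. With old freely fed replicate 2 left out, the SD was larger than in young rats for 4 of 6 members, beside 34.7% of all features, and was smaller for Cyba and Nox1. The ratio was then 2.54 for Cybb and 1.83 for Rac2, and the restricted SD was below the old freely fed SD for 3 of 6 members, beside 42.6% of all features. Old freely fed replicate 2 had the highest level of its group in 6 of 6 members, and this animal was highest in 24.0% of all features. Old freely fed replicate 1 was next in 6 of 6 members. Among restricted rats replicate 3 was highest in 5 of 6 members, beside 27.1% of all features.

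Across the 12 animals the 5 leukocyte subunits had correlated levels, with Pearson r of 0.83 to 0.97 over their pairs and 0.80 to 0.96 after each group was centred on its mean. Ncf1 and Rac2 were the closest pair (r = 0.97). Nox1 followed the leukocyte subunits at r of 0.67 to 0.84, and 0.63 to 0.82 after that centring, so its range overlapped that of the leukocyte pairs. These values describe arrays that share tissue, slide and scaling. Without old freely fed replicate 2 the r before centring was 0.64 to 0.94 among leukocyte subunits and 0.37 to 0.63 for Nox1 (n = 11). The genes whose levels were most like those of Cybb over the 12 animals were Ctsz (r = 0.988), Ly86 (0.973), Ctsc (0.972), Apol3l1 (0.972) and Arhgap4 (0.972), beside a median absolute r of 0.32 over all features. Ctsz and Ctsc encode lysosomal cathepsins, and Ly86 encodes MD-1, a partner of a toll-like receptor homologue on leukocytes. None of the 5 passed the test with age or restriction (limma adjusted p = 0.0934 to 0.232). They were picked for their likeness to Cybb on these same arrays, so this adds nothing independent to the Cybb result. For Rac2, examined in the same way after its result was seen, the most similar genes were Coro1a (r = 0.994), Ptprc (0.992), Dennd1c (0.989), Cd53 (0.987) and Lat (0.985). Coro1a is an actin regulator of leukocytes, Ptprc is the pan-leukocyte antigen CD45, Cd53 is a leukocyte tetraspanin and Lat is the adaptor of the T cell receptor. For Nox1, also examined afterwards, they were Or10aa1 (r = 0.950), Myo7a (0.938), Vav1 (0.923), Rasip1 (0.922) and Cxcl13 (0.916).

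Markers of leukocytes moved in the same direction as Rac2. Of 8 pan-leukocyte genes tested 4 rose with age (Laptm5, Ptprc, Coro1a and Itgb2, by 1.65-, 1.89-, 1.85- and 2.01-fold) and 0 fell, with a median change of 0.74. With restriction 2 of the 8 were lower (Cd53 by -0.81 and Coro1a by -0.83), with a median of -0.72. Their summed linear level was 11.7 to 14.0 in young, 16.7 to 28.5 in old freely fed and 13.0 to 16.7 in old restricted rats. Without old freely fed replicate 2 the same number were called in each comparison (4 and 2). In tissue RNA more leukocytes and more RNA per leukocyte cannot be told apart, and the part of these markers in the Rac2 result was not tested beyond the comparison with Ptprc given next.

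Markers of single leukocyte types gave different counts. Of 12 T and NK cell markers 6 rose with age, with a median of 0.89, and 2 were lower with restriction (Cd3d and Cd6, by -0.71 and -0.77), with a median of -0.74. Their summed level was 1.56 to 2.01 in young, 2.96 to 7.64 in old freely fed and 1.85 to 2.46 in old restricted rats. Of 15 macrophage markers 0 passed in either comparison by limma (8 and 5 at an unadjusted p under 0.05), although all 15 values were positive with age (median 0.52) and 14 of 15 negative with restriction (median -0.38). The closest to the threshold was Lyz2, lysozyme, at 0.67 with age and -0.67 with restriction (limma adjusted p = 0.051 and 0.055). The summed macrophage level was 49.8 to 59.5 in young, 64.8 to 144 in old freely fed and 53.2 to 70.2 in old restricted rats. Of 7 neutrophil markers tested 0 passed with age by limma (2 at an unadjusted p under 0.05), and 6 of 7 values were positive (median 0.40). With restriction 0 of 7 values were positive (median -0.49), and 4 were lower at an unadjusted p under 0.05. Of these Cxcr2, a chemokine receptor, passed at -1.14 (limma adjusted p = 0.029), and S100a9 at -1.53 did not (limma adjusted p = 0.0795). The summed neutrophil level was 0.118 to 0.230, 0.170 to 0.407 and 0.0991 to 0.141 in the same order, and the granule genes Elane, Mmp8 and Mmp9 and the receptor Cxcr1 were not bright enough to test. Without old freely fed replicate 2 the calls became 8 and 3 for T and NK cell markers, 2 higher with age and 1 lower with restriction for macrophage markers, and 0 for neutrophil markers.

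Markers of the bladder wall and of tissue beside it also moved with age, mostly downward. Of 9 smooth muscle markers 2 fell (Myl9 by 0.41 and Myh11 by 0.25), with a median of -0.34, and their summed level was 483 to 501 in young, 344 to 455 in old freely fed and 378 to 445 in old restricted rats. Of 8 fibroblast markers Col1a2 fell by 0.26, with a median of -0.36. Of 9 urothelial markers Krt5 rose by 0.66 and was the only 1 with a positive change, the median of the list being -0.16. Of 6 striated muscle markers tested Tnnc2 fell by 1.18, and of 4 prostate and seminal vesicle markers tested Andpro and Klk1 fell, with a summed level of 0.177 to 0.493 in young, 0.0758 to 0.115 in old freely fed and 0.0869 to 0.111 in old restricted rats. Of 7 endothelial markers 0 passed with age by limma (2 at an unadjusted p under 0.05). With restriction Pecam1, an endothelial adhesion molecule, was lower by -0.36, and no marker in the other 5 lists passed by limma (8 had an unadjusted p under 0.05). When old freely fed replicate 2 was left out, the age calls in these 6 lists were 0, apart from 1 lower in the prostate list, and the restriction call was lost. The part of these shifts in the Rac2 and leukocyte results was not tested.

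Relative to Ptprc, which marks all leukocytes, Cyba, Ncf4 and Nox1 changed by less with age, and no difference passed by limma for Rac2. Ptprc lay at -1.72, -1.53, -1.59 and -1.48 in young, -0.78, 0.09, -0.98 and -0.99 in old freely fed and -1.48, -1.60, -1.14 and -1.65 in old restricted replicates 1 to 4. Rac2 changed with age by 0.11 more than Ptprc (95% interval -0.37 to 0.59, limma adjusted p = 0.650), and with restriction by -0.17 (95% interval -0.65 to 0.31, limma adjusted p = 0.493), although an exact permutation test of that second difference alone gave p = 0.0286. The fit draws the spread of each gene towards that of all features, which all carry the variation of Ptprc. Its intervals for Rac2 can therefore be too wide, and they do not show that Rac2 changed equally to Ptprc. The age change of Cyba differed from that of Ptprc by -0.73 (limma adjusted p = 0.005), Nox1 differed by -0.70 (0.0192) and Ncf4 by -0.63 (0.0155). The fit treats features that share the variation of Ptprc as independent, so such p-values can be too small. For Ncf1 the difference was -0.48 (limma adjusted p = 0.058) and for Cybb -0.45 (0.101), and these did not pass. They did without old freely fed replicate 2, at -0.36 and -0.42 (limma adjusted p = 0.0111 and 0.0159). With restriction Cyba (0.61, limma adjusted p = 0.0184) and Nox1 (0.65, 0.031) differed from Ptprc, and Cybb, Ncf1 and Ncf4 (0.34, 0.36 and 0.37) did not pass. A change below that of Ptprc was the rule on this array, with 91.1% of all features called lower relative to it with age and 84.7% called higher with restriction, so the 3 and 2 of 6 members called this way were fewer than those shares would give. Between restricted old and young rats 0 of 6 members differed from Ptprc by limma (0 at an unadjusted p under 0.05), beside 0.955% of all features. The restriction calls of both genes were lost without old restricted replicate 2 or 4, that of Nox1 also without replicate 1, and the age calls of Ncf4 and Nox1 were lost without young replicate 1 and that of Ncf4 without young replicate 2. With the second probe of Ptprc the age difference of Cyba still passed and those of Ncf4 and Nox1 and both restriction differences did not. A fit of only the 2 groups compared also ended the restriction calls of Cyba and Nox1 (limma adjusted p = 0.0647 and 0.0693).

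**Figure D3:**
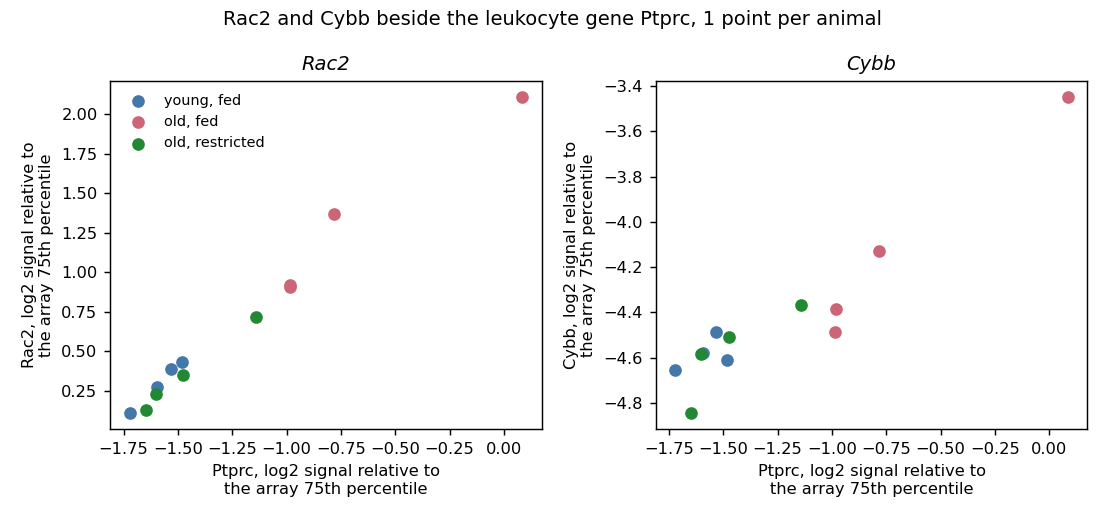
Level of Rac2 (left) and Cybb (right) against that of Ptprc in the same animal, all in log2 signal relative to the array 75th percentile, with 1 point for each of 12 rats. Rac2 follows Ptprc closely (r = 0.992), and the animal at the upper right is old freely fed replicate 2.

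Relative to Nox1, a comparison added because Nox4 could not be measured, Rac2 was the 1 leukocyte subunit that passed. It rose with age by 0.81 more than Nox1 (95% interval 0.46 to 1.16, limma adjusted p = 0.0266), beside 0.499% of all features called higher relative to Nox1. With restriction the difference was -0.83 (95% interval -1.18 to -0.47, limma adjusted p = 0.0215), beside 0.602% called lower. The other leukocyte subunits differed from Nox1 with age by 0.26 (Cybb), -0.03 (Cyba), 0.23 (Ncf1) and 0.07 (Ncf4), and with restriction by -0.32, -0.04, -0.29 and -0.29, and none passed. Between restricted old and young rats 0 of 5 differed from Nox1 by limma (0 at an unadjusted p under 0.05), beside 1.94% of all features. After normexp background correction Ncf1 passed in both comparisons (0.47 and -0.50) and Ncf4 with restriction (-0.48), so the contrast with this dim probe depended on the background correction. The Rac2 age difference was 0.65 without old freely fed replicate 2 (limma adjusted p = 0.0504), and it also missed the threshold without young replicate 1 or 3 and in a fit of only the 2 groups compared (limma adjusted p = 0.0655). The restriction difference missed it without old freely fed replicate 1 or old restricted replicate 1, 2 or 4.

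**Figure D4:**
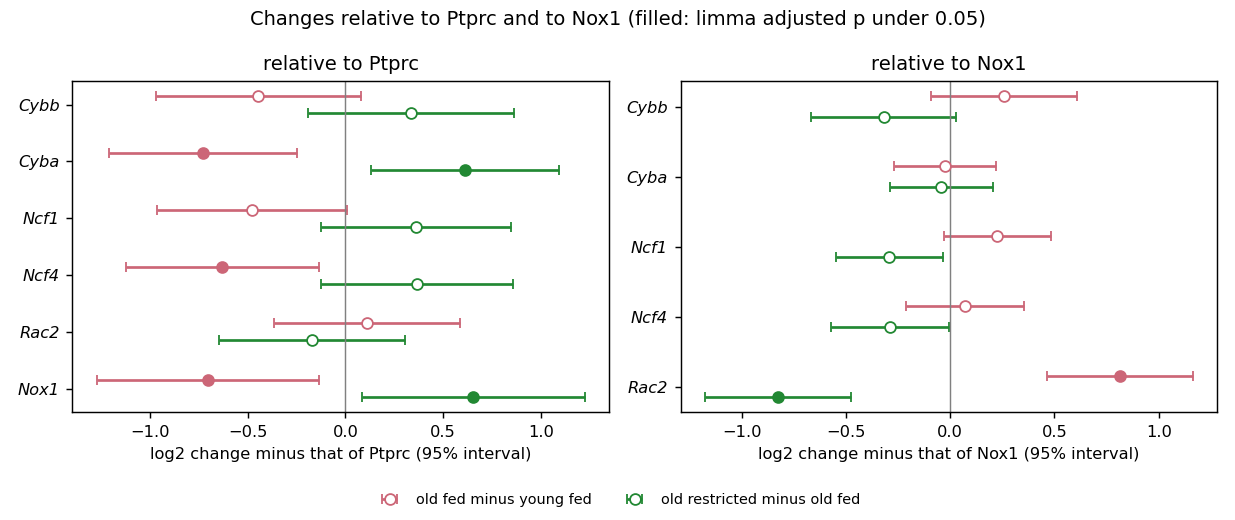
Change of each subunit minus the change of Ptprc (left) or Nox1 (right), in log2 units with 95% intervals, with age in red and with restriction in green, filled where the limma adjusted p was under 0.05. Rac2 lies near 0 relative to Ptprc (0.11 and -0.17) and away from 0 relative to Nox1 (0.81 and -0.83).

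Few other genes of the oxidase system passed the test. Over all features, 24.6% had an unadjusted p under 0.05 with age, 20.4% with restriction and 26.1% between restricted old and young rats. Of 14 partner genes 9 were named on the array and 8 were tested, and none passed with age or restriction by limma (3 and 2 had an unadjusted p under 0.05). Rac1, the Rac GTPase of most cells, was at 0.11 with age (limma adjusted p = 0.135) and -0.01 with restriction. Sh3pxd2a, the organiser-like scaffold Tks5, was lower by -0.62 in restricted old than in young rats (limma adjusted p = 0.014). Of 18 genes for receptors and signals that activate the oxidase, Tlr4, the lipopolysaccharide receptor, rose by 0.47 with age and Rap1a, a small GTPase, fell by 0.23 (limma adjusted p = 0.0466 and 0.04995), and both calls were lost without old freely fed replicate 2. With restriction 0 of the 18 passed by limma (7 at an unadjusted p under 0.05). In restricted old against young rats Agtr1a, the angiotensin receptor, was higher by 0.34, and Rap1a, Prkcb and Pik3r5 were lower by -0.32, -0.39 and -0.21. Of 8 myeloid transcription factor genes none passed by limma in any comparison (1 with age, 0 with restriction and 1 between restricted old and young rats at an unadjusted p under 0.05), the closest being Cebpb at 0.38 with age (limma adjusted p = 0.072).

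**Figure D5:**
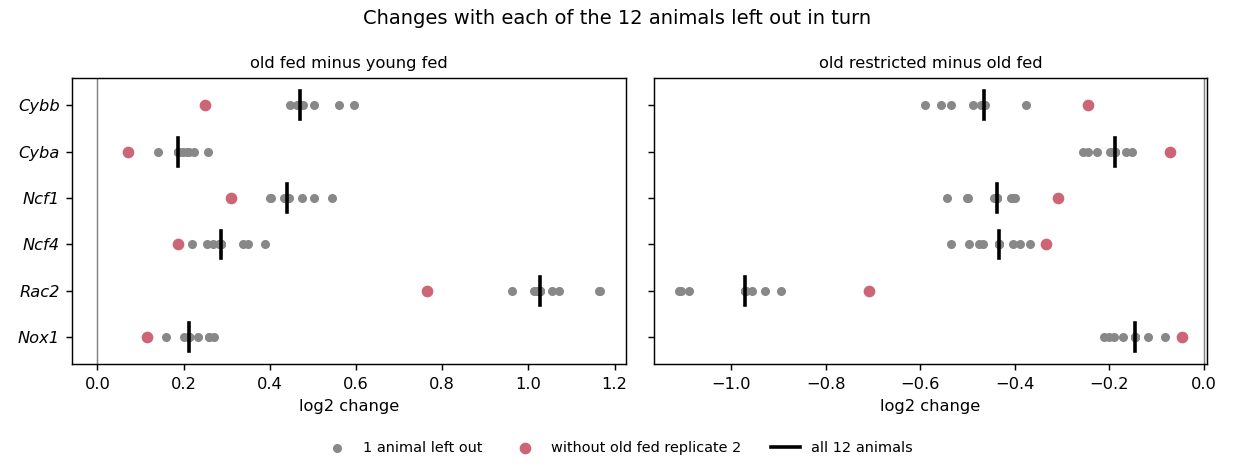
Log2 change of the 6 measured subunit genes with age (left) and with restriction (right) in all 12 animals (black bar), with each animal left out in turn (grey), and without old freely fed replicate 2 (red). Leaving out that animal brings every change nearest to 0, to 0.77 for Rac2 and 0.07 for Cyba with age.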

How the data were processed

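Total RNA from 12 bladders was labelled with Cy3 and hybridised to 1-colour Agilent rat arrays (design 028279, genome build rn4), per the labels' protocols and the file headers. The deposited values are spot intensities that the authors obtained with Agilent Feature Extraction 10.7.3.1 per the file headers (10.7 in the submitters' processing notes), with background subtracted and no scaling between arrays. The processed signals of the spots of a probe were averaged, without spots flagged as outliers unless all were flagged. The average was put on a log2 scale. The log2 of the 75th percentile over the 58717 non-control spots of the array was then subtracted. The filter kept 23089 probes that exceeded background throughout at least 1 group of 4. Names came from RefSeq accessions matched to GRCr8, and the brightest probe stood for a gene, leaving 20425 features. Tests used R 4.3 and limma 3.58 (lmFit, eBayes with trend, 12 arrays, 9 residual degrees of freedom), two-sided, Benjamini-Hochberg at 0.05 over all features. In relative fits the level of Ptprc or Nox1 was subtracted on each array. All features of such a fit carry the variation of that gene, yet the spread estimate treats them as independent, so its p-values are approximate. Simulated data were used to check the steps: with 20425 features in the age comparison they recovered 62% of 50 genes changed 1.5-fold and 92% of 50 changed 2-fold, with 9 false calls. The simulated noise was normal, independent between genes and equally wide in all groups. The members did not vary in that way, so these rates need not hold for them.

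Named genes were all members, up to 4 genes with the smallest adjusted p of each list in a comparison, and the 5 features most correlated with Cybb. The same for Rac2 and Nox1, and the fit relative to Nox1, were added after seeing the data. Results of some listed genes are not reported here. Members and lists were chosen with earlier results of these data known. Alternatives were quantile scaling, median centring, normexp (offset 50, on the median spot signal), other probe filters, all probes, no trend, 2 groups alone, a replicate block, an exact permutation test and each animal left out. Nothing in the labels says more of the animals than 1 per array, and their number limits the precision.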

Additional observations from a re-analysis of the deposited data

How the results depend on the processing

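The number of members called higher with age was 1, and it was 0 without the brightness trend, with only the 2 groups compared and with a replicate block, 1 under the other 7 settings, and 0 to 2 with 1 animal left out (2, Rac2 and Ncf1, without old freely fed replicate 4). The number called lower with restriction was 1, and it was 3 (Rac2, Ncf1 and Ncf4) after normexp with quantile scaling. It was 0 with no filter on dim probes, without the trend, with only the 2 groups compared and with a replicate block, 1 under the other 5 settings, and 0 to 2 with 1 animal left out. The counts called lower with age, higher with restriction and in either direction between restricted old and young rats were 0 under every one of these settings. Same-numbered animals of different groups deviated together at r of -0.19 to 0.11, so the numbers do not pair the animals, and with a replicate block the limma adjusted p of Rac2 was 0.0565 with age and 0.0701 with restriction. Apart from the animals left out, the Rac2 change ranged from 1.01 to 1.06 and from -0.98 to -0.95, and no called value of a member changed sign. Over all features, calls lower with age went from 415 to 143 with quantile scaling and 130 with median centring, while no scaling moved the median of all features by over 0.1. The fit relative to Nox4 was not run, because its probe was not well above background. Intensities near background limit Nox1, whose change lay between -0.01 and 0.28 with age over the settings. The causes of these differences were not tested.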
